A study of Mus musculus with 4 samples.

Results

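The 9 genes described here encode beta-defensins and other antimicrobial proteins of the skin. They are Defb1, Defb3, Defb4, Defb6 and Defb14, which encode beta-defensins, and Lcn2, Slpi, Camp and Ltf, which encode lipocalin 2, secretory leukocyte peptidase inhibitor, cathelicidin and lactoferrin. They were chosen by gene symbol, with earlier results of these data known, and all 9 were found among the 24346 gene symbols listed for each library. RNA sequencing was performed on dorsal skin of male wild-type C57BL/6 mice that were 8 weeks old when the diet began. The Cont-IMQ group was fed a NASH diet, which is rich in fat and cholesterol and contains bile salt, for 3 weeks, and the 7KC-IMQ group was fed this diet with added 7-ketocholesterol (7KC), an oxidized form of cholesterol, for the same 3 weeks. Both groups then received 5% imiquimod (IMQ) cream, an agonist of Toll-like receptor signaling that induces psoriasis-like dermatitis, for 1 day, and the skin was collected on Day 1. The duration of IMQ is taken from the sample labels, whereas the summary of the series mentions daily cream for the 7KC group and 1 day for controls only, and a difference in treatment, if there was one, would enter every value below. Each group had 2 libraries, replicates 1 and 2, and skin that received vehicle cream is not part of the comparison.

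Beta-defensins are short cationic peptides with disulfide bonds that damage microbial membranes, and some of them also attract immune cells through the chemokine receptor CCR6. In the epidermis some beta-defensins are made all the time, whereas others are induced in keratinocytes by IL-17, IL-22, IL-1 and TNF. Lipocalin 2 binds bacterial siderophores and so withholds iron, lactoferrin binds iron itself, cathelicidin is cut into a membrane-active peptide, and secretory leukocyte peptidase inhibitor blocks neutrophil elastase.

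Levels are given as FPKM, in which fragments are scaled to transcript length and to the mapped fragments of the library, so that levels of different genes are compared per length. Where a gene has a single transcript, its low values come in steps of 1 read, and these steps correspond to about 15150000 and 15070000 reads (Cont-IMQ) and 16210000 and 14990000 reads (7KC-IMQ). Wherever the values of single libraries are given, replicate 1 of a group comes first and replicate 2 second. A gene listed at exactly 0 can be a failed estimate. Nothing in the labels says that the libraries came from separate animals, and p-values therefore measure only the spread between these samples, which may be technical. The question addressed by the comparison was whether adding 7KC to the diet changed the response of the skin to IMQ.

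Of the 9 genes, 8 passed the filter on low values (a mean of at least 0.1 FPKM over the 4 libraries), and only Ltf failed it. None of the 8 passed through the 7KC-IMQ group alone, since each had a mean of at least 0.1 FPKM in the Cont-IMQ group as well. In 7 of the 8 genes (Defb3, Defb4, Defb6, Defb14, Lcn2, Slpi and Camp), both 7KC-IMQ libraries were higher than both Cont-IMQ libraries. Such an arrangement was found in 23.9% of the 15896 genes tested (46.8% in either direction), and the opposite arrangement, found in 22.9% of them, was found in none of the 8 genes. Defb1 overlapped between the groups. Of the 8 genes, 5 (Defb3, Defb4, Defb14, Lcn2 and Slpi) differed by at least 1 on the log2(FPKM + 1) scale without overlap, as did 0.484% of all genes tested in this direction. Of these 5 genes, Defb14 and Defb4 fell below 1 without Cont-IMQ replicate 2 (log2 differences 0.96 and 0.68). Defb4 also fell below 1 without 7KC-IMQ replicate 2 (0.93). The median log2 difference of the 8 genes was 1.17, compared with -0.0056 over all genes tested. Because the genes were chosen with earlier results of these data known, comparisons with all genes describe them and are not independent support. After Benjamini-Hochberg adjustment over all genes in limma, 0 of the 8 genes passed the threshold of 0.05, as did 0.00629% of all genes tested, and the adjusted p-values in limma lay between 0.331 and 0.615. With unadjusted p-values under 0.05 in limma, 6 of the 8 genes were higher in the 7KC-IMQ group and 0 lower, compared with 7.50% of all genes higher and 5.47% lower. The adjusted count was 5 when the log2 values of each library were set relative to its keratinocyte markers and 4 when FPKM was divided by their level, where 294 and 58 genes passed over the whole table, compared with 1 as reported. Without 7KC-IMQ replicate 2, the count at an unadjusted p-value was 3, and 333 of all genes tested were higher and 282 lower at this p-value, compared with 1192 and 869 with all 4 libraries. An exact permutation test of 2 libraries against 2 cannot go below 0.33 and was therefore of no use for single genes.

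**Figure D1:**
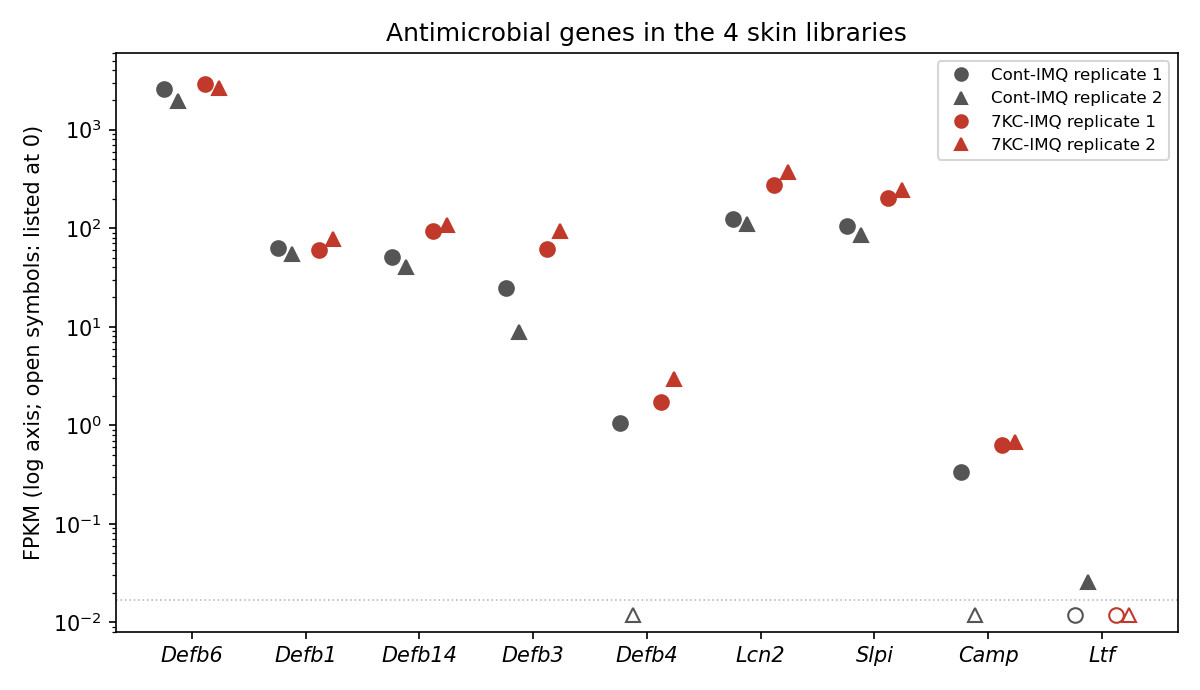
FPKM (log axis) of the 9 antimicrobial genes in each of the 4 skin libraries, with 1 symbol per library, grey for the Cont-IMQ group and red for the 7KC-IMQ group. Open symbols below the dotted line are values listed at 0. Defb6 is the highest in all 4 libraries (1965 to 2929 FPKM), and the groups overlap in Defb1 and Ltf.

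Defb6 and Defb1, the beta-defensins with the smallest differences, are described first. Defb6 was by far the most abundant of the 9 genes, with 2588 and 1965 FPKM (Cont-IMQ) against 2929 and 2639 FPKM (7KC-IMQ). Both 7KC-IMQ libraries were higher, but the lower of them exceeded Cont-IMQ replicate 1 by very little, and Cont-IMQ replicate 2 stood below the other 3 libraries. Group means were 2276 ± 441 FPKM (Cont-IMQ) and 2784 ± 205 FPKM (7KC-IMQ) with SD and n = 2. The log2 difference was 0.30 (95% confidence interval -0.17 to 0.78, adjusted p = 0.537 in limma), which is within the spread between replicates. After rescaling to the same FPKM sum or quantile normalization, the groups overlapped in Defb6. Among all 24346 symbols, Defb6 ranked number 24, 42, 19 and 29 by FPKM in Cont-IMQ replicates 1 and 2 and 7KC-IMQ replicates 1 and 2. Its transcript of 323 bases is short relative to the sequenced fragments, with an effective length of 133 bases at a fragment length of 200 ± 80 bases, so its FPKM depends strongly on the length correction.

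Defb1, the mouse counterpart of the constitutively expressed human beta-defensin of epithelia, had 63.2 and 55.2 FPKM (Cont-IMQ) against 59.7 and 77.3 FPKM (7KC-IMQ). The groups overlapped, since 7KC-IMQ replicate 1 lay between the 2 Cont-IMQ libraries, and only 7KC-IMQ replicate 2 was high. The mean was 59.2 ± 5.66 FPKM and 68.5 ± 12.4 FPKM (SD, n = 2), with a log2 difference of 0.20 (95% confidence interval -0.20 to 0.60, adjusted p = 0.615 in limma). The log2 difference of Defb1 was 0.017 without 7KC-IMQ replicate 2 and 0.38 without 7KC-IMQ replicate 1, and 0.30 without Cont-IMQ replicate 1 and 0.10 without Cont-IMQ replicate 2. Without replicate 1 of either group, the groups no longer overlapped.

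The inducible beta-defensins differed more. Defb3 (ENSMUSG00000039775.7, chr8:19293360-19295291 of GRCm38), an inducible defensin of airway and skin epithelium, had 24.7 and 8.93 FPKM (Cont-IMQ) against 62.2 and 93.2 FPKM (7KC-IMQ). The groups did not overlap, and the Cont-IMQ libraries lay far apart. Group means were 16.8 ± 11.2 FPKM (Cont-IMQ) and 77.7 ± 21.9 FPKM (7KC-IMQ) with SD and n = 2, a 4.62-fold higher mean. On the log2(FPKM + 1) scale the difference was 2.27 (95% confidence interval 0.96 to 3.58, adjusted p = 0.354 in limma). It was 1.58 without Cont-IMQ replicate 2 and 2.96 without Cont-IMQ replicate 1, so that its size rested on which control library was used while both values remained above 1. With a transcript of only 275 bases, the lowest value of Defb3 corresponds to an estimated 13 reads at its effective length, or 37 reads if its full length is counted.

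Defb14 (ENSMUSG00000046354.3, chr8:19194357-19195212), the mouse counterpart of human beta-defensin 3 and a ligand of CCR6, had 51.3 and 40.1 FPKM (Cont-IMQ) against 93.3 and 109 FPKM (7KC-IMQ). Replicates were close in both groups, and the groups lay further apart than the replicates of either. The mean was 45.7 ± 7.90 FPKM and 101 ± 11.2 FPKM (SD, n = 2), a 2.21-fold higher mean in the 7KC-IMQ group. This gave a log2 difference of 1.14 (95% confidence interval 0.74 to 1.53, adjusted p = 0.331 in limma), with values of 0.96 to 1.31 when single libraries were left out.

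Defb4, the mouse counterpart of the inducible human beta-defensin 2, was at 1.06 FPKM in the first Cont-IMQ library and listed at 0 in the second, against 1.74 and 2.96 FPKM (7KC-IMQ). Both 7KC-IMQ libraries were higher, but all 4 values rest on few reads, an estimated 4, 0, 7 and 11. Summed over the groups, 18 reads in the 7KC-IMQ group against 4 in the Cont-IMQ group give a ratio of 4.36 per depth (exact 95% interval 1.44 to 17.7, counting error only). The log2 difference of 1.20 (95% confidence interval 0.14 to 2.25, adjusted p = 0.365 in limma) was 0.68 without Cont-IMQ replicate 2. With a pseudocount of 0.1 it was 2.80, but the unadjusted p-value in limma moved from 0.033 to 0.071.

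**Figure D2:**
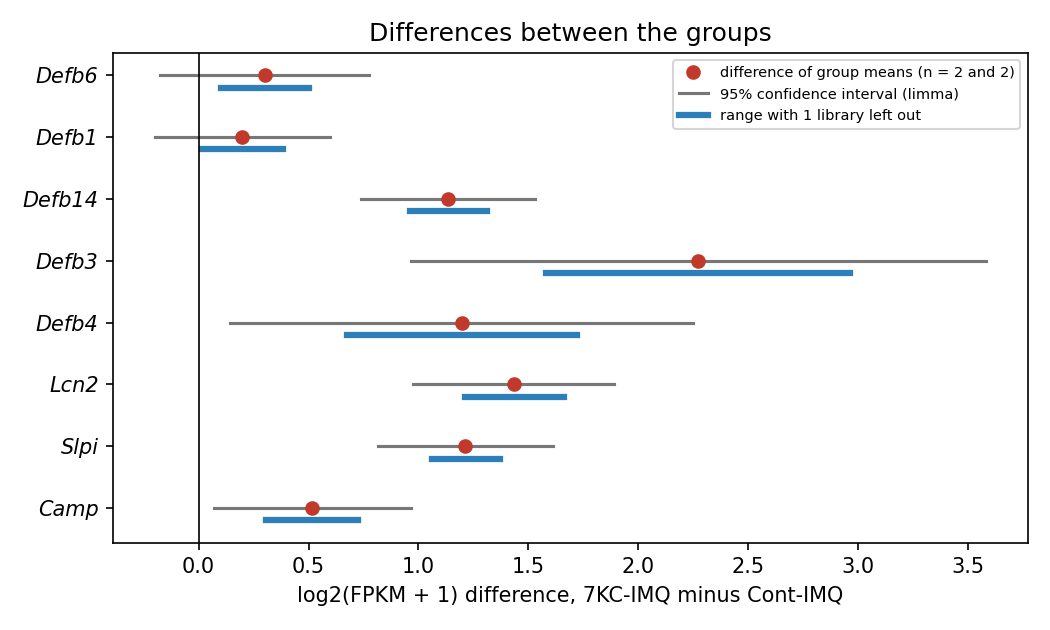
Log2(FPKM + 1) difference between the groups (7KC-IMQ minus Cont-IMQ, 2 libraries each) for the 8 genes tested. Points are differences of group means, thin lines 95% confidence intervals from limma, and thick lines the range with each library left out in turn. Defb3 has the largest difference (2.27) and the widest interval, and the intervals of Defb1 and Defb6 include 0.

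The make-up of the beta-defensin transcripts was therefore examined, a comparison chosen after the values were seen. The 5 beta-defensin genes summed to 2728 and 2069 FPKM (Cont-IMQ) against 3146 and 2921 FPKM (7KC-IMQ). Of this sum, Defb6 took 94.9% and 94.96% (Cont-IMQ) against 93.1% and 90.3% (7KC-IMQ). The inducible genes Defb3, Defb4 and Defb14 together took 2.83% and 2.37% (Cont-IMQ) against 5.0% and 7.03% (7KC-IMQ). Defb6 thus dominated all 4 libraries, and the share of the inducible genes was higher in both 7KC-IMQ libraries without overlap.

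Ratios taken within a library do not depend on the scaling between libraries. The log2 ratio of Defb3 to Defb6 was -6.71 and -7.78 (Cont-IMQ) against -5.56 and -4.82 (7KC-IMQ) (difference of means 2.06). The log2 ratio of Defb14 to Defb1 was -0.30 and -0.46 (Cont-IMQ) against 0.64 and 0.50 (7KC-IMQ), so that the FPKM of Defb14 lay below that of Defb1 in the Cont-IMQ group and above it in the 7KC-IMQ group. The transcript of Defb14 has 204 bases and an effective length of 64 bases, compared with 872 and 672 bases for Defb1, so which of them is higher within a library depends strongly on the length correction. The log2 ratio of Defb3 to Defb14 was -1.05 and -2.17 (Cont-IMQ) against -0.58 and -0.23 (7KC-IMQ). None of these 3 ratios overlapped between the groups (exact permutation test, two-sided, p = 0.33 for each, the smallest value possible).

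**Figure D3:**
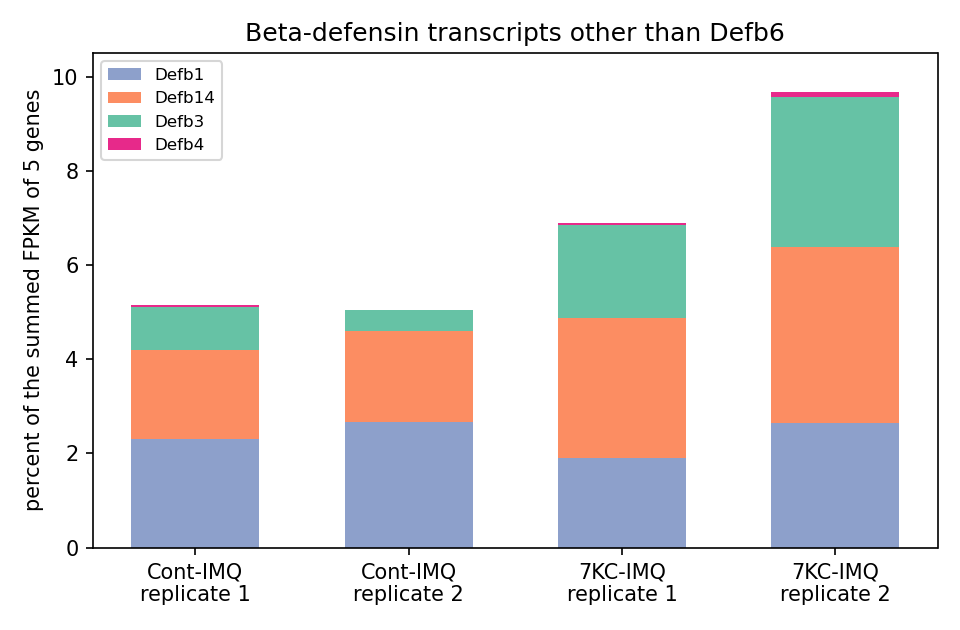
Percent of the summed FPKM of the 5 beta-defensin genes taken by Defb1, Defb14, Defb3 and Defb4 in each library (stacked bars from 0), the remainder being Defb6. Defb1 takes between 1.90% and 2.67% in the 4 libraries, whereas Defb3 takes 0.907% and 0.432% (Cont-IMQ) against 1.98% and 3.19% (7KC-IMQ).

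All 5 beta-defensin genes lie on chromosome 8. Defb14, Defb4, Defb6 and Defb3 lie in this order within 101 kb, on the forward strand, and Defb1 lies 2481 kb beyond Defb3. The files list 43 symbols that begin with Defb, and of the 38 besides those described here, 36 were listed at 0 in all 4 libraries. Of the remaining 2, Defb2 was listed at 0.693 and 0 FPKM (Cont-IMQ) and 0.648 and 0 FPKM (7KC-IMQ), and Defb42 was above 0 in Cont-IMQ replicate 1 only. None of the 75-base windows in the transcripts of the 9 genes occurred in another gene (0% in each, exact matches, both strands), so that the related defensin genes do not share full-length reads. Over the whole transcript, Defb3 and Defb6 were the most alike of the 10 pairs of these 5 genes, with 61.9% identity in a global alignment.

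Promoter sequences from RefSeq (GRCm38.p6) were found for 6 of the 9 genes (Defb3, Defb6, Lcn2, Slpi, Camp and Ltf). Those of 4 genes are shown, because Defb3 and Defb6 are neighbors with different behavior between the groups, and Lcn2 and Slpi were higher together with Defb3. Each sequence is the 250 bases before the start of the gene, at chr8:19293111-19293360 (forward strand), chr8:19225228-19225477 (forward strand), chr2:32387740-32387989 (reverse strand) and chr2:164356508-164356757 (reverse strand). The start is that given by RefSeq, which for Lcn2 and Slpi lies inside the wider GENCODE span given for these genes below. Capitals mark matches to the letters TTGCNNAA on either strand, a C/EBP motif.
Defb3: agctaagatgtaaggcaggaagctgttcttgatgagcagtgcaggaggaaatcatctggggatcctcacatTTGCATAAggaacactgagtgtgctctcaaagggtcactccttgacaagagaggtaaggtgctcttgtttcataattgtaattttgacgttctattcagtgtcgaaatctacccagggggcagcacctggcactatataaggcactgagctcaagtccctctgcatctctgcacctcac
Defb6: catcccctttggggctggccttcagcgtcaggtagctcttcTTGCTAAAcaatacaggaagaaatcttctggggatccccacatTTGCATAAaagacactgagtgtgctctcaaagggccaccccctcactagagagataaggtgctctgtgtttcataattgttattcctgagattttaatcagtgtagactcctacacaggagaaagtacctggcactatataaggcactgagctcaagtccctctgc
Lcn2: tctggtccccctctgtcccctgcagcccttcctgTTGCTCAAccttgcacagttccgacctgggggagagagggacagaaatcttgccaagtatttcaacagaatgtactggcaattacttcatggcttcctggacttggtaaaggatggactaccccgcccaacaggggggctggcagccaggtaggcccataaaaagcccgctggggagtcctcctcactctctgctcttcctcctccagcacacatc
Slpi: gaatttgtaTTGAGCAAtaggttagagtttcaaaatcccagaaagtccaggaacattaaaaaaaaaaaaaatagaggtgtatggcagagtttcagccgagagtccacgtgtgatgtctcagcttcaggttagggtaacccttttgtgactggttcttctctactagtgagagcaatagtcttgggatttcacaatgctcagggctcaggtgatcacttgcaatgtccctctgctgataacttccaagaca
The Defb3 and Defb6 sequences were 72.5% identical in a global alignment, compared with 42.1% to 50.3% for the other 14 pairs among the 6 genes, and shared an unbroken run of 40 bases. Both held the match TTGCATAA, 179 to 172 bases before the start in Defb3 and 166 to 159 bases in Defb6, and Defb6 held another match further upstream. TTGCNNAA was found in 5 of the 6 promoters (all but Camp) and in 9.57% of all 32536 promoter sequences of this length. Single consensus strings of NF-kB, STAT (TTCNNNGAA) and AP-1 and the exact letters TATAAA were found in 0 of the 6 and in 4.65%, 7.04%, 6.73% and 12.3% of all promoters. Other forms of these motifs, such as variants of the TATA box, were not searched. A match is a description of the letters only, and whether matches bear on the level of a gene was not tested.

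Among the other antimicrobial genes, Lcn2 (ENSMUSG00000026822.14, chr2:32384633-32388252) had 125 and 110 FPKM (Cont-IMQ) against 273 and 372 FPKM (7KC-IMQ). Both 7KC-IMQ libraries were far above both Cont-IMQ libraries, and 7KC-IMQ replicate 2 was the highest. Group means were 118 ± 10.8 FPKM (Cont-IMQ) and 323 ± 69.8 FPKM (7KC-IMQ) with SD and n = 2, a 2.74-fold higher mean. The log2 difference was 1.43 (95% confidence interval 0.98 to 1.89, adjusted p = 0.331 in limma), with values of 1.21 to 1.66 when single libraries were left out. Lcn2 is among the genes that the study itself showed from these libraries, so its direction is not independent evidence.

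Slpi (ENSMUSG00000017002.14, chr2:164354070-164389095) had 105 and 85.0 FPKM (Cont-IMQ) against 201 and 242 FPKM (7KC-IMQ). The libraries fell in the same order as for Defb14, with Cont-IMQ replicate 2 the lowest and 7KC-IMQ replicate 2 the highest. The mean was 95.1 ± 14.4 FPKM and 222 ± 29.5 FPKM (SD, n = 2), a 2.33-fold higher mean in the 7KC-IMQ group. The log2 difference was 1.21 (95% confidence interval 0.82 to 1.61, adjusted p = 0.331 in limma), ranging from 1.06 to 1.37 with each library left out. Relative to Krt5, a keratin of basal keratinocytes, the log2 ratio of Slpi was -4.86 and -4.90 (Cont-IMQ) against -3.79 and -3.49 (7KC-IMQ), and that of Lcn2 was -4.61 and -4.53 against -3.35 and -2.88. Relative to Krt14, the difference of means was smaller, 0.93 for Slpi and 1.15 for Lcn2, without overlap.

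Camp and Ltf, whose proteins are stored in the secondary granules of neutrophils, were near the limit of detection. Camp was at 0.336 FPKM in the first Cont-IMQ library and listed at 0 in the second, against 0.628 and 0.682 FPKM (7KC-IMQ), an estimated 3, 0, 6 and 6 reads. The ratio of 12 reads to 3 reads was 3.87 per depth (exact 95% interval 1.05 to 21.4, counting error only), and the log2 difference was 0.52 (95% confidence interval 0.07 to 0.97, adjusted p = 0.365 in limma). It was 0.31 without Cont-IMQ replicate 2. With a pseudocount of 0.1 it was 1.85, but the unadjusted p-value in limma moved from 0.032 to 0.063. Ltf was listed at 0.0258 FPKM in Cont-IMQ replicate 2, an estimated 1 read (exact 95% interval 0.03 to 5.57 reads), and at 0 in the other 3 libraries, where a count of 0 allows up to 3.69 reads. A difference in Ltf was therefore not detectable at this depth.

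In order of FPKM, which among the short defensin transcripts depends on the length correction, Defb6 stood first in every library. In the Cont-IMQ group it was followed by Lcn2, Slpi, Defb1, Defb14 and Defb3, and in the 7KC-IMQ group by Lcn2, Slpi, Defb14, then Defb3 and Defb1, with Defb4, Camp and Ltf last in both. In the 7KC-IMQ group Defb3 was above Defb1 in both libraries (62.2 against 59.7 FPKM and 93.2 against 77.3 FPKM). The means of Defb1 and Defb3 in this group did not differ beyond their spread (68.5 ± 12.4 and 77.7 ± 21.9 FPKM). In the Cont-IMQ group Defb3 was below Defb1 in both libraries.

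For 4 of the genes, the genes of at least 1 FPKM with the most similar profile were searched among 13110 genes, by the Euclidean distance between log2(FPKM + 1) values over the 4 libraries, each gene centred on its own mean. For Defb14 these were Slpi (distance 0.089), Prss22 (0.150) and Timp1 (0.194). For Lcn2 they were 2010005H15Rik (0.065), Sprr2h (0.215) and Prss22 (0.220). The level of 2010005H15Rik was low, 0.41 and 0.21 FPKM (Cont-IMQ) against 1.93 and 2.93 FPKM (7KC-IMQ). At such levels this scale understates changes, so a small distance does not mean a like fold change. For Defb3 they were Sprr2j-ps (0.467), a pseudogene by its symbol, Sprr2i (0.546) and Sprr2b (0.558). Sprr2i and Sprr2b encode small proline-rich proteins of the cornified envelope. For Defb4, whose own profile rests on an estimated 4, 0, 7 and 11 reads, they were Wfdc12 (0.145), Serpinb3a (0.162) and Rnase2b (0.288). No gene came as close to Defb3 as the nearest gene did to each of the other 3 genes. Profiles were not scaled, so distances tend to grow with the size of a difference, which was largest in Defb3 (2.27). Distances of different genes therefore cannot be compared as likeness of pattern.

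Other antimicrobial genes of the skin are set beside these. Of 33 listed genes, 28 were tested, and 14 were higher and 6 lower without overlap (23.9% and 22.9% of all genes tested were so). The adjusted threshold in limma was passed by 0 of the 28, and their median log2 difference was 0.28. Unadjusted limma p-values lay under 0.05 for 10 higher and 3 lower genes, compared with 7.50% and 5.47% of all genes tested. Ngp passed the filter through the 7KC-IMQ group alone and Wfdc2, 1 of the 6 lower genes, through the Cont-IMQ group alone. S100a9, a subunit of the zinc-binding protein calprotectin and the most abundant of them, had 1293 and 1063 FPKM (Cont-IMQ) against 3586 and 7010 FPKM (7KC-IMQ), and its partner S100a8 had a log2 difference of 2.11. Pglyrp1, a peptidoglycan recognition protein, had 4.02 and 3.36 against 11.0 and 11.0 FPKM, and Wfdc12, a relative of Slpi 163 kb away from it, had 17.8 and 8.18 against 24.1 and 39.8 FPKM. Among the 6 lower genes, Chil3, Lyz1, Wfdc21 and Rnase4 had log2 differences of -0.46, -0.39, -0.38 and -0.28. The log2 ratio of Lcn2 to S100a9 was lower in the 7KC-IMQ libraries (-3.71 and -4.24) than in the Cont-IMQ libraries (-3.37 and -3.27).

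Cytokines that induce these genes in keratinocytes were mostly higher. Of 17 listed cytokines, 16 were tested, and 14 were higher and 0 lower without overlap (23.9% and 22.9% over all genes). The adjusted threshold was passed by 0 of the 16 (median log2 difference 0.79). With unadjusted p-values under 0.05 in limma, 14 were higher, compared with 7.50% of all genes higher and 5.47% lower. Il22 passed the filter on low values through the 7KC-IMQ group alone (0.148 and 0 against 0.554 and 1.20 FPKM), and without it 13 of 15 were higher without overlap and 13 at an unadjusted p-value under 0.05. Several of them are named by the study for this skin, so the list is not independent of it. Of the IL-17 family, Il17c had 8.53 and 8.47 against 18.4 and 18.2 FPKM, Il17f had 1.34 and 1.02 against 5.08 and 6.33 FPKM, and Il17a had 0.0675 and 0.341 against 0.821 and 1.44 FPKM. Of the IL-20 family, Il19 had 8.71 and 5.49 against 32.6 and 35.4 FPKM, and Il20, Il22 and Il24 had log2 differences of 0.73, 0.79 and 1.00. Il6, Il1a, Tnf, Il1b, Osm, Tgfa and Il36g (listed as Il1f9) had log2 differences of 1.57, 0.88, 0.79, 0.76, 0.67, 0.52 and 0.41. Il36a (listed as Il1f6), the most abundant cytokine, and Il36b (listed as Il1f8) overlapped between the groups, as did Defb1, and Ifng failed the filter with at most 0.183 FPKM.

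Receptors and signaling genes of these cytokines are given next, and the same shares over all genes apply to these and the following lists. The shares are 23.9% higher and 22.9% lower without overlap. Counted by unadjusted limma p-values under 0.05, they are 7.50% higher and 5.47% lower. Of 24 genes tested, 11 were higher and 1 (Il20rb) lower without overlap, 0 passed the adjusted threshold, and 5 were higher with unadjusted p-values under 0.05 in limma (median log2 difference 0.16). Zc3h12a, Tlr2, Osmr and Cebpb had log2 differences of 0.68, 0.68, 0.56 and 0.53, and Nfkbia, the most abundant, 0.11. Among receptors, proteases and other partners of the antimicrobial proteins, 15 of 17 genes were tested, 4 were higher and 0 lower without overlap, which for the higher genes is near the share over all genes, 0 passed the adjusted threshold and 1 had an unadjusted p-value under 0.05 (median log2 difference 0.05). Ccr6, the receptor of Defb14, had 0.447 and 0.195 against 1.08 and 0.663 FPKM, and Klk7, a kallikrein able to process cathelicidin, had 786 and 700 against 805 and 964 FPKM, and Klk14 and Lrp1 had log2 differences of 0.49 and 0.092. Camp itself was at or below 0.682 FPKM in the same libraries.

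**Figure D4:**
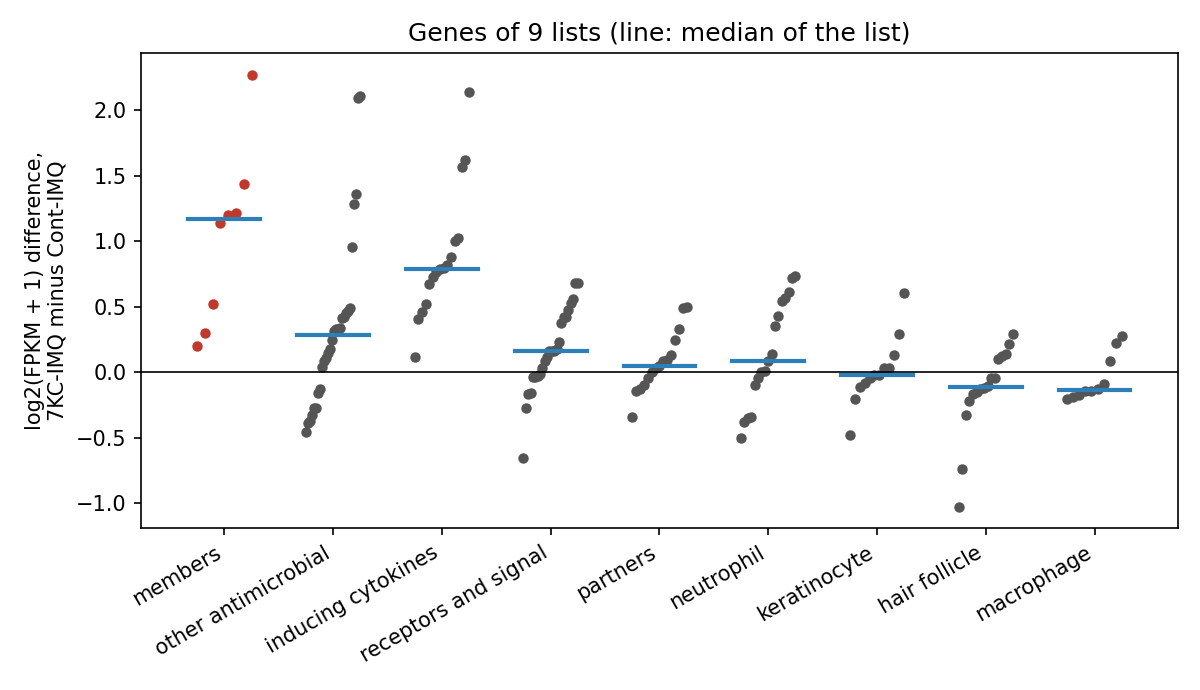
Log2(FPKM + 1) difference (7KC-IMQ minus Cont-IMQ, 2 libraries each) of every gene tested in 9 lists, 1 point per gene, with a line at the median of each list. The 9 antimicrobial genes described here (red, 8 tested) have a median of 1.17 and the inducing cytokines 0.79, and the medians of the keratinocyte, hair follicle and macrophage lists lie between -0.137 and -0.0194.

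In bulk skin, a change in the number of cells of a type and a change in RNA per cell cannot be told apart, and markers of cell types were therefore set beside the antimicrobial genes. Markers of keratinocytes, the cells that make beta-defensins in the epidermis, summed to 37417 and 28487 FPKM (Cont-IMQ) against 30830 and 34462 FPKM (7KC-IMQ), and overlapped between the groups. Of these 12 genes, 2 were higher (Dsg3 and Krt14, log2 differences 0.60 and 0.29) and 1 lower (Dsg1a, -0.48) without overlap, and Krtdap was the most abundant. The log2 ratio to Krt5 was higher in both 7KC-IMQ libraries for Defb3, Defb14 and Defb6, with a difference of means of 2.38, 1.17 and 0.32. Relative to Krt14, the difference of means was 2.06 for Defb3 and 0.86 for Defb14, again without overlap, but 0.007 for Defb6, whose groups overlapped, so that the result for Defb6 depends on the marker.

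Neutrophil markers summed to 175 and 225 FPKM (Cont-IMQ) against 189 and 172 FPKM (7KC-IMQ), of which Il1r2, also made by other cells, was the most abundant. Of 17 genes tested, 8 were higher and 3 lower without overlap (median log2 difference 0.087). Ngp and Trem1 passed the filter through the 7KC-IMQ group alone, and without them 7 of 15 were higher and 3 lower (median log2 difference 0.0089). Clec4d, Retnlg, Cxcr1 and Cxcr2 had log2 differences of 0.73, 0.72, 0.61 and 0.57, and the lower genes Mmp9, Il1r2 and Fpr1 had -0.50, -0.38 and -0.35. A further list held 8 neutrophil granule, precursor and receptor genes, which do not all share the stage in which Camp and Ltf are made. Of these 8 genes, 5 were tested, and 2 were higher and 1 (Chil3) lower without overlap. Fcnb was listed at 0 in each library, and Ngp, Mpo and Cd177 had at most 0.138, 0.0562 and 0.105 FPKM, whereas Ltb4r1, the most abundant, had 16.0 and 14.5 against 19.7 and 21.4 FPKM. Lcn2 had 110 FPKM or more in every library, in which Ltf, Ngp and Camp had less than 1 FPKM. The part of neutrophils in the values of Lcn2, Slpi and Camp was not tested.

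The libraries differed most in hair follicle markers. These summed to 136 and 1658 FPKM (Cont-IMQ) against 496 and 440 FPKM (7KC-IMQ), and all 16 genes overlapped between the groups. Krt71, the most abundant, had 34.5 and 503 against 135 and 112 FPKM. Cont-IMQ replicate 2, which had the highest level of these markers, also had the lowest level of all 7 antimicrobial genes that were higher without overlap. Cont-IMQ replicate 1 had the lowest level of the markers. Without Cont-IMQ replicate 2, the log2 differences were 1.58 for Defb3, 1.34 for Lcn2, 1.06 for Slpi, 0.96 for Defb14, 0.68 for Defb4, 0.31 for Camp and 0.10 for Defb6. Each had to be smaller than with all 4 libraries, because the library left out was the lowest in each of these genes. The part of hair follicle content in these values was not tested.

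**Figure D5:**
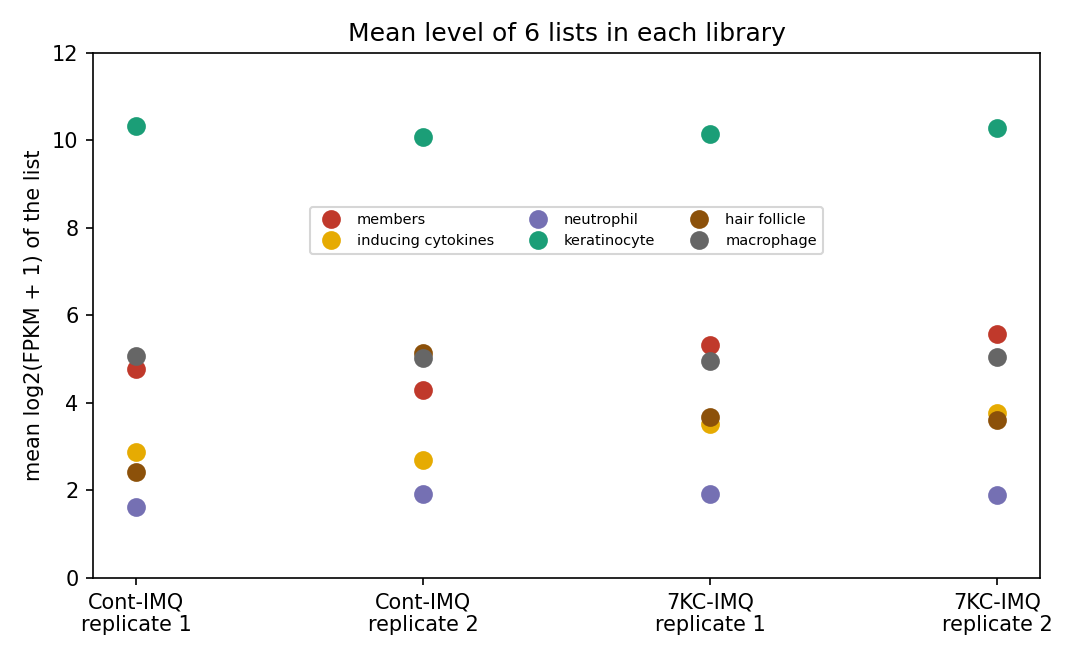
Mean log2(FPKM + 1) of the 9 antimicrobial genes, of the inducing cytokines and of 4 lists of cell type markers in each library, 1 point per list and library. The antimicrobial genes lie at 4.77 and 4.30 (Cont-IMQ) and at 5.32 and 5.58 (7KC-IMQ), the keratinocyte markers stay between 10.1 and 10.3, and the hair follicle markers range from 2.42 to 5.13.

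Macrophage markers summed to 747 and 925 FPKM (Cont-IMQ) against 721 and 792 FPKM (7KC-IMQ) (1 of 10 higher and 2 lower without overlap, C1qb the most abundant). T cell markers (2 of 7 tested higher, 3 lower), muscle (2 of 10 higher, 2 lower), and red blood cell genes (0 of 4 tested higher, 1 lower) showed no common direction without overlap, and adipocyte markers had 2 of 8 higher and 0 lower, with a median log2 difference of 0.21. The lower red blood cell gene, Hbb-bs, had 8.32 and 0.0044 FPKM (Cont-IMQ) against 0.0039 and 0.0043 FPKM (7KC-IMQ). Its difference thus rests on Cont-IMQ replicate 1 alone. Hbb-bs and Slc4a1 passed the filter through the Cont-IMQ group alone. Without them, 0 of 2 red blood cell genes were lower, and the median log2 difference was 0.088, compared with -0.12 with them. Sebaceous gland markers had 6 of 10 genes higher and 2 lower, with a median log2 difference of 0.33. Of these lists, log2 differences of single genes without overlap included 2.07 (Myh4), 0.19 (Ckm), -0.36 (Acta1) and -0.76 (Myh1) in muscle, 1.58 (Lep) and 0.38 (Plin1) in adipocytes, 0.43 (Thy1), 0.037 (Cd3d), -0.36 (Cd3e) and -0.53 (Cd3g) in T cells, 0.28 (Cd14), -0.15 (Csf1r) and -0.17 (Cd68) in macrophages, and 0.55 (Elovl3), 0.48 (Awat1), 0.36 (Scd1), 0.33 (Krt79), -0.017 (Awat2) and -0.66 (Mc5r) in sebaceous glands, where 2 more were higher. The most abundant were Acta1, Fabp4, Hba-a1, Thy1 and Krt79 in muscle, adipocytes, red blood cells, T cells and sebaceous glands. In each marker list 0 genes passed the adjusted threshold in limma, and at an unadjusted p-value under 0.05 there were 4 higher and 0 lower among neutrophil genes, 2 and 1 among genes of the granule and precursor stages, 1 and 1 among keratinocyte genes, 3 and 1 among sebaceous genes, 1 and 3 among T cell genes, 1 and 1 among muscle genes, 2 and 0 among adipocyte genes, and 0 among hair follicle, macrophage and red blood cell genes. Over all genes tested, 7.50% were higher and 5.47% lower by the same unadjusted limma p-value. The median log2 differences of the lists of macrophages, T cells, muscle, adipocytes, red blood cells and sebaceous glands lay between -0.137 and 0.33, compared with 1.17 for the antimicrobial genes.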

How the data were processed

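RNA sequencing of 4 dorsal skin libraries was analyzed, 2 per group, grouped by the sample labels. Single-end reads of 75 bases had been mapped to mm10 by the authors, who deposited FPKM per gene; the submitters' notes name TopHat2 2.1.1, Bowtie2 2.2.8, SAMtools 0.1.18 and Cuffdiff 2.2.1, and the treatment of strand in counting is not given in the sources used here. No further scaling was applied. From the deposited FPKM, log2(FPKM + 1) was compared between the groups by limma 3.58.1 (lmFit, eBayes with a variance trend, two-sided) in R 4.3.3, over the 15896 genes whose mean FPKM was 0.1 or more, with Benjamini-Hochberg adjustment at 0.05. Differences on this scale understate the change of low genes. The members and lists were chosen with earlier results of these data known, and the gene lists were compiled by hand. Of each list, the text names the most abundant gene and up to 4 of the largest differences in each direction among genes without overlap and with a mean FPKM of at least 1, besides all cytokines; other genes, and the ratios within libraries, were chosen after their values were seen. Symbols were matched by RefSeq synonyms (Il36a, Il36b, Il36g and Il36rn), and Ly6g, Trac, Trdc and Hbb-bt were not found among the symbols. Coordinates, lengths and 75-base windows came from GENCODE M21 (GRCm38, also called mm10). Reads were estimated from the steps of low values (1 to 6 reads) of genes with 1 transcript of 800 to 6000 bases, at a fragment length of 200 ± 80 bases. Of these values, 75.6% to 78.3% lay within 0.1 of a whole number, compared with 20% by chance. Estimates are rough for transcripts not much longer than the fragments, and intervals cover counting error only. Promoters were aligned by Biopython 1.88.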

Additional observations from a re-analysis of the deposited data

How the results depend on the processing

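Over 14 alternatives, the 8 genes tested gave 111 log2 differences, of which 0 changed direction, 102 kept their side of the adjusted threshold and 9 moved past it. All 9 came from setting the libraries relative to their keratinocyte markers. With the log2 values set relative to the list, 5 of the 8 genes passed (Defb3, Defb4, Defb14, Lcn2 and Slpi) and 294 genes passed over the whole table. With FPKM divided by the level of the list, an alternative chosen after seeing the data, 4 of the 8 genes (Defb3, Defb14, Lcn2 and Slpi) and 58 genes passed. The prior degrees of freedom estimated by limma were 2.61 in the comparison as reported, infinite in the first and 7.46 in the second, and the cause was not tested. The count over the whole table, 1 as reported (Mir24-2), was 2 with a pseudocount of 0.1, 71 with no filter on low values, and between 1 and 9 with each library left out in turn (9 without Cont-IMQ replicate 1, 5 without Cont-IMQ replicate 2). Of the 8 genes, 6 were higher at an unadjusted p-value under 0.05 as reported, 4 with a pseudocount of 0.1 and 4 with no filter on low values (Defb4 and Camp no longer under 0.05 in either), 5 with a filter at a mean of 1 FPKM, and between 3 and 6 with each library left out, the lowest without 7KC-IMQ replicate 2, and 0 passed the adjusted threshold in any of these. Over all genes tested, 1192 of 15896 were higher and 869 lower at an unadjusted limma p-value under 0.05 as reported. These counts were 1189 and 877 of 15896 with a pseudocount of 0.1. They were 1295 and 1033 of 24346 with no filter on low values. With a filter at a mean of 1 FPKM they were 1080 and 766 of 13110. Where a library was left out, the lone library of a group was assumed to vary like the other group. The count without overlap, 7 as reported beside 23.9% of all genes higher without overlap, lay between 6 and 8 in all alternatives, Camp failing a filter at a mean of 1 FPKM, but the share of all genes differed. The count was 6 beside 15% after rescaling to the same FPKM sum, 8 beside 15% with the log2 values set relative to the keratinocyte list, 8 beside 16.7% with FPKM divided by its level, and 7 or 8 beside 33.3% to 38.8% with a library left out, where 1 library stands against 2. Replicate numbers are shared by both groups, but same-numbered libraries hardly deviated together (correlation 0.065 over 15896 genes, from 2 pairs), so the numbers were not taken as pairs. With the replicate block, 0 of the 8 genes and 1 gene over the whole table passed. The comparison is limited by 2 libraries in a group, and for Defb4, Camp, Ltf and the lowest Defb3 value also by depth, with 0 to 13 estimated reads.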
